A study of Mus musculus with 12 samples.

Results

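The 46 genes described here encode the degradative enzymes, membrane proteins and proton pump of the lysosome, with the transcription factors that control them. They were chosen by symbol from a list, and all 46 were among the 18278 genes counted in each library and among the 18176 genes that passed the count filter. They comprised 19 hydrolases (7 proteases, 8 glycosidases or sulfatases and 4 lipid hydrolases), 3 soluble lysosomal proteins that are not enzymes, 7 membrane proteins, 13 subunits of the vacuolar ATPase (V-ATPase), 3 MiT/TFE factors and the autophagy receptor Sqstm1. Their mRNA was measured by RNA-seq in tumourspheres, the clusters that dissociated cells form in non-adherent wells, of 2 mouse mammary cancer lines from lung metastases, LM1 and LM9, and of their pools labelled Nfib KO, here LM1KO and LM9KO, with 3 libraries in each of 4 groups. NFIB is a transcription factor of the nuclear factor I family. Both lines go back to a mammary tumour line (HR1) driven by a mutant PIK3CA transgene under the CAG promoter, into which a piggyBac transposon had been introduced for mutagenesis. In LM1KO and LM9KO, CRISPR-Cas9 had been used to put a frameshift into Nfib, and each was a pool of a few clones, so it is a model of those clones. LM1 and LM9 were the unedited lines. All groups shared the culture: non-adherent plates, medium with 20 ng per mL of EGF and 20 ng per mL of bFGF, a density of 10000 cells per mL at plating, and harvest after 6 days. No other treatment was given on the labels.

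Lysosomes degrade proteins, glycans and lipids with hydrolases that work at acid pH. The V-ATPase supplies the acid: its cytosolic V1 sector hydrolyses ATP, and its V0 sector in the membrane carries protons into the lumen. TFEB, TFE3 and MITF bind E-box and M-box elements in promoters of lysosomal and autophagy genes, and mTORC1, which is activated on the lysosome by the Rag GTPases, keeps them in the cytosol in fed cells.

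Promoter sequences are shown because the members move in part together and the MiT/TFE factors among them bind such motifs. RefSeq windows on GRCm38.p6 (250 bases before to 50 after each start site) were matched for 38 of the 46 genes. The E-box core CACGTG was present in the windows of 12 of the 38 genes (31.6%), against 8.09% of 27025 genes. The longer form TCACGTGA, which contains the core, was present in 6 of 38 (15.8%, against 1.12% of all genes). The M-box TCATGTGA, searched on both strands, so also as TCACATGA, was present in 5 of 38 (13.2%, against 1.15% of all genes). The CLEAR palindrome (TCACGTGA with G before it and C after it) was matched in none of the 38 (0.37% of all genes), nor was the palindromic nuclear factor I motif (TTGGC, then 5 bases of any kind, then GCCAA; 0.0444% of all genes). A match to these letters is a description of the window. One 30-base stretch is given for each of the 6 genes with TCACGTGA, followed by an M-box stretch for each of the 5 genes with one (Tpp1 has 2 overlapping stretches, of which 1 is given), each 5' to 3' on the strand of the gene with the motif in capitals.
Atp6v0d1, chr8:105566050-105566079, minus strand: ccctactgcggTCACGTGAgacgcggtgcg
Atp6v1a, chr16:44139373-44139402, minus strand: ttttttttaaaTCACGTGAtaggcttaacg
Ctsa, chr2:164833749-164833778, plus strand: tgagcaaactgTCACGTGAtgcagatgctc
Ctsd, chr7:142387908-142387937, minus strand: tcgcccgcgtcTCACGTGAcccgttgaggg
Gla, chrX:134601182-134601211, minus strand: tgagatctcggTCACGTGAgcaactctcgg
Mcoln1, chr8:3500462-3500491, plus strand: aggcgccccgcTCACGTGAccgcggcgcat
Atp6v0c, chr17:24169449-24169478, minus strand: gcggggacagaTCATGTGAcgcgagcgcgg
Grn, chr11:102430285-102430314, plus strand: tgattctctaaTCACATGAtccctagaaat
Gla (M-box), chrX:134601198-134601227, minus strand: gagcatctacgTCATGTGAgatctcggtca
Ppt1, chr4:122836229-122836258, plus strand: agtccccgcggTCATGTGAttgctaagatg
Tpp1, chr7:105752213-105752242, minus strand: ccagaccatgcTCATGTGActtatcacatg

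The first base of TCACGTGA lay 4 bases before the start site in Atp6v0d1, 132 before it in Atp6v1a, 13 before it in Ctsa, 99 before it in Ctsd, 195 before it in Gla and 46 before it in Mcoln1. Of these 6 genes, the V-ATPase subunits Atp6v0d1 and Atp6v1a were higher in the libraries labelled Nfib KO in both lines, Ctsd was lower in LM9KO, Gla was slightly higher in LM9KO in a call lost in 13 of 21 other settings, and Ctsa and Mcoln1 passed the test in neither line with all libraries (values below). As log2 ratios of transcripts-per-million (TPM), with no test, Ctsd was at 0.13 in LM1 and 0.09 in LM9, so its direction depends on the scale, and both values were below the median of all genes on that scale (0.33 and 0.62).

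Libraries held 29249075 to 37162594 counts. Values are counts-per-million scaled by TMM factors (CPM), and a floor of 3 counts was 0.0807 to 0.103 counts-per-million of the library total. The targeted gene comes first: for Nfib the values were 196, 217 and 241 CPM in LM1, 238, 238 and 228 CPM in LM1KO, 210.2, 119.6 and 134 CPM in LM9 and 227, 247 and 246 CPM in LM9KO. The KO-labelled values overlapped LM1 and were above LM9. Its log2 fold change was 0.11 (SE 0.16, adjusted p = 0.533) in LM1 and 0.68 (SE 0.17, adjusted p = 0.0026) in LM9. A frameshift need not change the count of a transcript, so the counts do not check the edit. The KO-labelled libraries of both lines stood apart from the parental ones: the 6 correlated with each other, across genes and on the log2 CPM scale, at r = 0.9982 to 0.9987, LM1KO with LM9KO included, and with the 6 parental libraries at 0.7784 to 0.7946. A difference between the lines that were edited and the parental lines other than the edit cannot be told apart from the edit. Across genes, log2 CPM of LM9 replicate 1 had a correlation of 0.998 with each LM1 library but of 0.972 to 0.974 with LM9 replicates 2 and 3. In chi-square comparisons of counts, it differed from LM1 replicate 1 by 2.24 per degree of freedom, less than the LM1 libraries differed from each other (5.34 to 7.72), and from LM9 replicates 2 and 3 by 164 and 145. Whether this library is mislabelled cannot be told from the labels, and every LM9 mean and fold change with all libraries includes it. LM9 replicate 1 lay within 10% of the LM1 range for all 46 members, while LM9 replicates 2 and 3 were both above the joint range of LM1 and LM9 replicate 1 in 28 members and both below it in 12. Where leaving this library out changed a member's call in a comparison of label and parent, the value without it is also given. No batch is named on the labels, and nothing there says that replicates were separate cultures, so the p-values measure only the spread between these libraries. The defining markers of cell types also moved with the label. Summed over the 7 of 10 mammary epithelial markers analysed, 752 to 1378 CPM were measured in parental libraries and 8.603 to 9.088 CPM in KO-labelled ones. Of these 7, 6 were lower and Krt14 was higher, at 0 to 0.322 CPM in parental and 6.16 to 6.897 CPM in KO-labelled libraries. The 7 of 9 fibroblast markers summed to 174 to 311 and to 1309 to 1402 CPM. Among them Col1a1 was at 936 to 979 CPM in LM1KO, while Dcn was lower in the averaged comparison (log2 -2.08, adjusted p = 1.93e-04). In LM9 Dcn was not called (-1.18, adjusted p = 0.0576), with 84.4, 15.7 and 15.1 CPM in the LM9 libraries. Without LM9 replicate 1 that value was -0.32 (adjusted p = 0.00114). The 4 of 8 endothelial markers summed to 0.573 to 2.64 CPM and to 369 to 377 CPM. Kdr, Cdh5 and Vwf were higher, and Kdr (279 to 289 CPM) and Cdh5 (67.8 to 74.6 CPM) made up most of the KO-labelled sum. Pecam1 was not called on average (log2 -0.25, adjusted p = 0.629) and was lower without LM9 replicate 1 (-0.73, adjusted p = 0.0055). Tie1, Tek, Erg and Emcn were not among the genes counted. The part of these differences in the results on lysosomal genes was not tested. In bulk RNA, fewer cells of a type and less RNA per cell cannot be told apart.

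Between parental and KO-labelled libraries, most V-ATPase members rose, while the balance among hydrolases depended on the scale. The genes were chosen with earlier results of these data known. With the change averaged over both lines, 22 of the 46 genes were higher in the KO-labelled libraries, 16 were lower and 8 passed the test in neither direction (limma-voom, adjusted p under 0.05). Over all genes tested 86.8% were called in this comparison, 46.3% as higher and 40.5% as lower, so the number of members called was near the background. What differed was the direction by role, which is given as counts with no test. Of the 13 V-ATPase subunits 12 were higher and 0 lower, with a median log2 fold change of 0.69. Of the 19 hydrolases 5 were higher and 11 lower, with a median of -0.33, and over all genes the median was 0.11. Membrane proteins were even, with 3 higher and 3 lower of 7. In LM1 alone 22 members were higher and 16 lower (background 43.1% and 38.1%, 81.2% in all), and in LM9 alone 23 were higher and 16 lower (44.3% and 38%, 82.3% in all). Higher in both lines were 21 members (background 39.6%), lower in both were 15 (33.5%), and called in opposite directions were 0 (0.0385%). In opposite directions without LM9 replicate 1 were 5 members (5.73%), namely Ctsa, Mitf, Neu1, Ppt1 and Sqstm1. In chi-square comparisons of counts, LM1KO libraries differed from LM9KO libraries by 1.62 to 5.65 per degree of freedom. Within LM1KO this was 1.44 to 3.06 and within LM9KO 1.64 to 4.17. The KO-labelled libraries were thus nearly as alike across lines as within them, and agreement between the lines need not be an independent repeat. Changes past 1 log2 unit were measured in 8 members upward (background 30.9%) and 10 downward (25.8%). Changes past 2 log2 units were measured upward in Atp6v0a2 and Atp6v1h (17.6%) and downward in Cd68, Gpnmb and Npc2 (12.5%). With library totals in place of TMM factors, the median of all genes rose to 0.40, and 29 members were higher and 14 lower (background 52.8% and 33.6%), with the V-ATPase at 13 of 13 higher and the hydrolases at 8 higher and 9 lower. Without LM9 replicate 1, 24 members were higher and 18 lower (background 48.9% and 43%), with V-ATPase subunits at 13 of 13 higher and hydrolases at 5 higher and 13 lower.

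**Figure D1:**
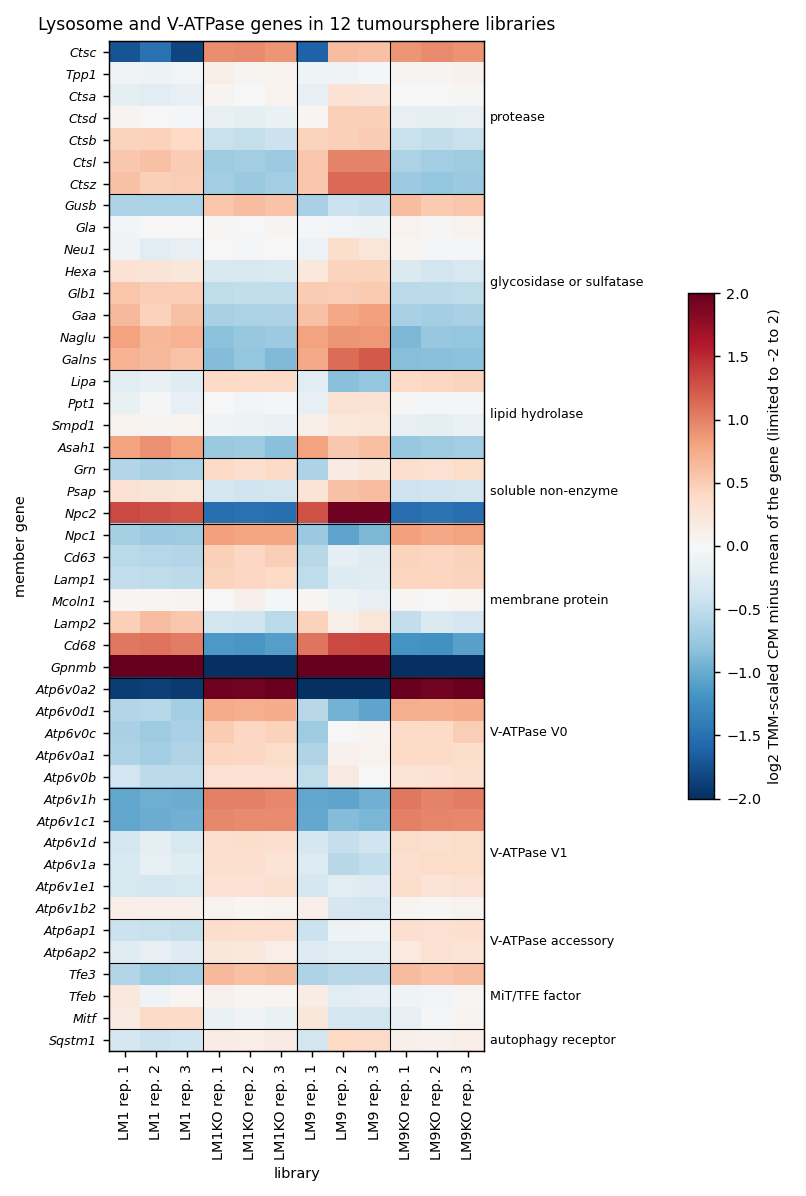
Log2 CPM of each of the 46 members (rows, grouped by role) in each of the 12 libraries (columns, grouped as LM1, LM1KO, LM9 and LM9KO), centred on the mean of each gene, with colours limited to -2 to 2. V-ATPase rows are mostly low in parental and high in KO-labelled libraries, and LM9 replicate 1 resembles the LM1 columns.

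Among the 7 proteases, 2 were higher and 4 lower in the averaged comparison (background 46.3% and 40.5%). The cysteine cathepsins that fell most were Ctsz, a carboxypeptidase, and Ctsl, an endopeptidase. Ctsz was at 1116, 1031 and 1045 CPM in LM1 and at 457, 443 and 458 CPM in LM1KO, and at 1080, 1630 and 1625 CPM in LM9 and at 448, 434 and 443 CPM in LM9KO. Ctsz changed by a log2 fold change of -1.23 (SE 0.13, adjusted p = 3.04e-06) in LM1 and -1.68 (SE 0.13, adjusted p = 1.92e-07) in LM9. The 3 LM1 libraries held 5415, 5549 and 5293 CPM of Ctsl and the 3 LM1KO libraries 2277, 2300 and 2255 CPM, while LM9 held 5394, 7395 and 7349 CPM and LM9KO 2381, 2288 and 2279 CPM. The groups did not overlap in either gene, and for Ctsl (ENSMUSG00000021477, chr13:64359337-64370890, minus strand) the log2 fold change was -1.25 (SE 0.10, adjusted p = 3.26e-07) in LM1 and -1.52 (SE 0.10, adjusted p = 5.81e-08) in LM9. A processed pseudogene in the files shares 6.09% of the exon bases of Ctsl on the same strand. Ctsb, the cathepsin with the highest level per length in LM1, fell by 0.91 on the log2 scale (SE 0.03, adjusted p = 1.74e-10). Ctsd, the aspartic protease, was lower in LM9KO (log2 -0.50 (SE 0.10, adjusted p = 5.06e-04)) and did not pass in LM1 (log2 -0.17 (SE 0.10, adjusted p = 0.137)), where it passed without LM9 replicate 1 (-0.16, adjusted p = 3.92e-06). Its averaged value of -0.33 became -0.05 with library totals (adjusted p = 0.303), its log2 TPM ratio was above 0 in both lines, and 34.4% of its exon bases lie in a second gene on the same strand.

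Ctsc and Tpp1 rose. Ctsc encodes dipeptidyl peptidase 1, which activates granule serine proteases, and Tpp1 a tripeptidyl peptidase. Ctsc measured 6.88, 8.03 and 6.36 CPM in LM1 against 43.1, 43.4 and 42.01 CPM in LM1KO, and 7.35, 34.9 and 33.97 CPM in LM9 against 41.8, 43.5 and 42.3 CPM in LM9KO. The KO-labelled values were above every parental value, but LM9 was split, with replicate 1 at the LM1 level and replicates 2 and 3 close to LM9KO. Ctsc had a log2 fold change of 2.59 (SE 0.50, adjusted p = 5.40e-04) in LM1 and 1.09 (SE 0.42, adjusted p = 0.031) in LM9. Without LM9 replicate 1 the LM9 value was 0.31 (adjusted p = 4.46e-05). The LM9 call was lost when any LM9KO library was left out (adjusted p = 0.0584 without replicate 1, 0.0633 without replicate 2 and 0.06 without replicate 3), with edgeR (0.75, adjusted p = 0.104), with DESeq2 (0.73, adjusted p = 0.0938) and with only the groups compared (adjusted p = 0.118). In LM1, Tpp1 stood at 139, 136 and 141 CPM, in LM1KO at 158, 152 and 154 CPM, in LM9 at 138, 139 and 144 CPM and in LM9KO at 153, 152 and 155 CPM. The rise of Tpp1 was small but without overlap between groups, with a log2 fold change of 0.16 (SE 0.05, adjusted p = 0.0082) in LM1 and 0.13 (SE 0.05, adjusted p = 0.0253) in LM9. The LM9 call of Tpp1 was lost without LM9KO replicate 3 (adjusted p = 0.0739) and in the fit of only the groups compared (0.139). Ctsa, the protective protein that stabilises other hydrolases, was at 329.6 to 466 CPM in parental libraries and 379.5 to 401 CPM in KO-labelled ones and passed in neither line with all libraries (adjusted p = 0.0559 in LM1 and 0.283 in LM9). Ctsa passed in both lines without LM9 replicate 1, in opposite directions, at log2 0.23 (adjusted p = 6.33e-07) in LM1 and -0.26 (adjusted p = 4.16e-07) in LM9. In LM1 it passed in 8 of 21 other settings, DESeq2 among them (0.25, adjusted p = 0.0408), and with library totals the LM9 value was 0.24 (adjusted p = 0.00356).

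Glycosidases and sulfatases were mostly lower, with 2 of 8 higher, 5 lower (background 46.3% and 40.5%) and a median log2 fold change of -0.83. The largest falls were those of Galns, the sulfatase that removes sulfate from keratan and chondroitin sulfate, and Naglu, which acts on heparan sulfate. Galns was at 56.1, 54.4 and 51.5 CPM in LM1 and at 18.9, 20.2 and 18.8 CPM in LM1KO, and at 58.2, 74.8 and 80.8 CPM in LM9 and at 19.1, 19.4 and 19.7 CPM in LM9KO. On the log2 scale the change of Galns was -1.48 (SE 0.11, adjusted p = 1.84e-07) in LM1 and -1.86 (SE 0.11, adjusted p = 2.22e-08) in LM9. In LM1, Naglu stood at 123, 112 and 114 CPM, in LM1KO at 39.7, 41.7 and 42.5 CPM, in LM9 at 122, 129 and 127 CPM and in LM9KO at 37.4, 41.5 and 41.2 CPM. Parental and KO-labelled libraries did not overlap in either gene, and the log2 fold change of Naglu was -1.49 (SE 0.06, adjusted p = 1.36e-09) in LM1 and -1.66 (SE 0.06, adjusted p = 6.07e-10) in LM9. Gaa, the acid alpha-glucosidase that degrades glycogen, fell by 1.29 on the log2 scale (SE 0.05). Glb1, the lysosomal beta-galactosidase, fell by 1.02 (SE 0.03), and Hexa, the alpha subunit of beta-hexosaminidase, by 0.63 (SE 0.05). All 5 were called as lower in each line.

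Gusb, the beta-glucuronidase, moved the other way. The 3 LM1 libraries held 51.04, 50.6 and 50.4 CPM of Gusb and the 3 LM1KO libraries 116, 120.3 and 117 CPM, while LM9 held 50.2, 58.3 and 57.1 CPM and LM9KO 120, 112 and 115 CPM. It was 2.32-fold higher in LM1KO and 2.10-fold higher in LM9KO, with a log2 fold change of 1.21 (SE 0.06, adjusted p = 7.06e-09) in LM1 and 1.07 (SE 0.06, adjusted p = 2.07e-08) in LM9, and no library of one label reached the range of the other. Gla, the alpha-galactosidase A that cleaves globotriaosylceramide, had small changes whose call depends on the scale. For Gla the values were 102, 107 and 106 CPM in LM1, 109, 108 and 111 CPM in LM1KO, 105, 103 and 99.4 CPM in LM9 and 112, 109 and 112 CPM in LM9KO. The log2 fold change was 0.06 (SE 0.05, adjusted p = 0.292) in LM1 and 0.11 (SE 0.05, adjusted p = 0.0459) in LM9, and the averaged value of 0.09 (SE 0.03, adjusted p = 0.034) was lost with the replicate number as a block (adjusted p = 0.0624). In LM1 Gla passed with library totals (0.28, adjusted p = 0.00238) and with DESeq2 (0.08, adjusted p = 0.0409). The LM9 call was lost in 13 of 21 other settings, among them edgeR (adjusted p = 0.0539), median-ratio factors (0.0523) and the fit of only the groups compared (0.194). The averaged call of Gla was also lost without LM1 replicate 1 (adjusted p = 0.0648), LM1KO replicate 1 (0.0553) or 3 (0.0633), LM9 replicate 3 (0.0608), or LM9KO replicate 1 (0.0567) or 3 (0.0652). Neu1, the sialidase held in a complex by Ctsa and Glb1, did not pass in either line with all libraries (log2 0.15 (SE 0.10, adjusted p = 0.19) in LM1 and -0.16 (SE 0.10, adjusted p = 0.155) in LM9). Neu1 without LM9 replicate 1 passed in both with opposite signs, at 0.15 (adjusted p = 0.00292) and -0.30 (adjusted p = 1.46e-05), and on average at -0.07 (adjusted p = 0.0402). With library totals it was higher in both lines, at 0.37 and 0.19 (adjusted p = 4.55e-04 and 0.0243).

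Of the 4 lipid hydrolases, 1 was higher, 2 were lower (background 46.3% and 40.5%) and 1 did not pass. Lipa, the acid lipase that releases cholesterol and fatty acids from lipoprotein lipids, rose. Lipa measured 177, 185 and 174 CPM in LM1 against 270.2, 268 and 267 CPM in LM1KO, and 177, 115 and 119 CPM in LM9 against 271, 274 and 279 CPM in LM9KO. KO-labelled values were above all parental values, and LM9 replicates 2 and 3 were the lowest of the 12. Lipa changed on the log2 scale by 0.59 (SE 0.13, adjusted p = 0.00105) in LM1 and 1.03 (SE 0.13, adjusted p = 1.30e-05) in LM9. Asah1, the acid ceramidase, fell: the averaged log2 fold change was -1.48 (SE 0.05, adjusted p = 1.05e-10). Asah1 was at 346, 372 and 346 CPM in LM1 and at 119, 122 and 111 CPM in LM1KO, and at 348, 289.5 and 300.3 CPM in LM9 and at 118, 121 and 122 CPM in LM9KO. No KO-labelled library reached the level of any parental one, and the change of Asah1 was -1.59 in LM1 and -1.37 in LM9. Smpd1, the acid sphingomyelinase, was lower by a small amount that depends on the scale. In LM1, Smpd1 stood at 75.8, 75.5 and 75.8 CPM, in LM1KO at 68.8, 67.2 and 66.1 CPM, in LM9 at 78.05, 83.7 and 85.9 CPM and in LM9KO at 64.6, 64.1 and 66.2 CPM. With TMM factors its log2 fold change was -0.17 (SE 0.05, adjusted p = 0.0122) in LM1 and -0.34 (SE 0.05, adjusted p = 8.80e-05) in LM9, while with library totals it was 0.05 and 0.01 (adjusted p = 0.318 and 0.867). The LM1 call of Smpd1 was lost without LM1KO replicate 3 (adjusted p = 0.0521). Ppt1, which removes palmitate from proteins, had an averaged log2 fold change of -0.02 (SE 0.08, adjusted p = 0.774). That value without LM9 replicate 1 was -0.10 (adjusted p = 0.00296), and the lines went opposite ways, at 0.10 (adjusted p = 0.0199) in LM1 and -0.30 (adjusted p = 3.23e-06) in LM9. With library totals Ppt1 was higher in both lines, at 0.32 and 0.21 (adjusted p = 0.00196 and 0.0224).

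The 3 soluble proteins that are not enzymes went in different directions. Npc2 hands cholesterol to Npc1 inside the lysosome and fell more than any of the 19 hydrolases among the members. For Npc2 the values were 2209, 2159 and 2125 CPM in LM1, 313, 314 and 311 CPM in LM1KO, 2146, 3433 and 3432 CPM in LM9 and 308, 318 and 309 CPM in LM9KO. The gene (ENSMUSG00000021242, chr12:84754562-84773152, minus strand) was 6.92-fold lower in LM1KO and 9.43-fold lower in LM9KO, with a log2 fold change of -2.79 (SE 0.14, adjusted p = 5.68e-09) in LM1 and -3.24 (SE 0.14, adjusted p = 1.73e-09) in LM9. Its lowest parental library was far above its highest KO-labelled one. Psap is the precursor of the saposins, the activators of sphingolipid hydrolases. Psap was at 4771, 4652 and 4555 CPM in LM1 and at 3029, 2951 and 3014 CPM in LM1KO, and at 4698, 5783 and 5958 CPM in LM9 and at 2920, 2935 and 2994 CPM in LM9KO. Psap was lower without overlap, with a log2 fold change of -0.64 (SE 0.08, adjusted p = 1.44e-05) in LM1 and -0.89 (SE 0.08, adjusted p = 7.86e-07) in LM9. Grn encodes progranulin, which reaches lysosomes with prosaposin and is processed to granulins. Grn measured 872, 828 and 837 CPM in LM1 against 1699, 1640 and 1692 CPM in LM1KO, and 849, 1451 and 1517 CPM in LM9 against 1643, 1612 and 1677 CPM in LM9KO. Grn was higher in all KO-labelled libraries, but LM9 replicates 2 and 3 came close to them, and the log2 fold change was 0.99 (SE 0.17, adjusted p = 2.03e-04) in LM1 and 0.42 (SE 0.17, adjusted p = 0.0397) in LM9. Without LM9 replicate 1 the LM9 value of Grn was 0.15 (adjusted p = 1.19e-04). Leaving out any LM1KO or LM9KO library, LM1 replicate 1 or LM1 replicate 3 ended the LM9 call of Grn (adjusted p between 0.051 and 0.0873), as did edgeR (0.0583), DESeq2 (0.0635), a filter of a mean of at least 5 CPM (0.0559) and the fit of only the groups compared (0.144).

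Membrane proteins held the largest fall of the 46. Gpnmb is a glycoprotein of melanosomes and lysosomes and a known MiT/TFE target. The 3 LM1 libraries held 2417, 2430 and 2405 CPM of Gpnmb and the 3 LM1KO libraries 8.71, 7.84 and 8.64 CPM, while LM9 held 2428, 2344 and 2330 CPM and LM9KO 7.86, 8.37 and 8.53 CPM. Parental and KO-labelled levels of Gpnmb were far apart and each was tight. The gene (ENSMUSG00000029816, chr6:49036546-49070929, plus strand) was 288-fold lower in LM1KO and 287-fold lower in LM9KO, with a log2 fold change of -8.17 (SE 0.07, adjusted p = 1.90e-14) in LM1 and -8.16 (SE 0.07, adjusted p = 1.98e-14) in LM9. Cd68, the macrosialin, is abundant in macrophage lysosomes. Cd68 measured 459.7, 467 and 450.1 CPM in LM1 against 100.1, 98.8 and 103 CPM in LM1KO, and 466, 549 and 554 CPM in LM9 against 96.1, 95.7 and 104 CPM in LM9KO. Cd68 was lower in every KO-labelled library, with a log2 fold change of -2.19 (SE 0.07, adjusted p = 1.64e-10) in LM1 and -2.40 (SE 0.07, adjusted p = 8.73e-11) in LM9. Since Gpnmb and Cd68 are also high in macrophages, osteoclasts and melanocytes, markers of these cells are given. The 4 of 14 macrophage markers analysed summed to 41.6 to 60.1 CPM in parental and 30.2 to 31.9 CPM in KO-labelled libraries, and most of the sum was Cd14. Ptprc, Adgre1, Itgam, Aif1, Tyrobp, Fcer1g, Lyz2, C1qa, C1qb and Spi1 were not among the genes counted. The 4 analysed did not move together. Csf1r was at 0 or 1 count in every parental library and at a mean of 12.4 CPM in LM1KO, whereas the other 3 were lower with the KO label, as Gpnmb and Cd68 were. Mpeg1 was at 2.98 to 4.94 CPM in parental libraries and at 0 to 2 counts in KO-labelled ones, Fcgr3 at 0.95 to 2.01 CPM and at 0 to 3 counts, and Cd14 at 37.03 to 54.5 and at 17.5 to 19.2 CPM. The 2 of 7 melanocyte markers summed to 0.355 to 1.38 and 0.679 to 0.933 CPM, and the 4 of 6 osteoclast markers to 37.4 to 79.7 and 40.9 to 43.2 CPM. Most of the osteoclast sum was Nfatc1, which was lower in the averaged comparison (log2 -0.67, adjusted p = 0.00126), while Ocstamp, Oscar and Tnfrsf11a were higher (2.32, 2.16 and 0.79). In LM9 Nfatc1 was not called (-0.36, adjusted p = 0.137) and was at -0.01 without LM9 replicate 1. Oscar was not called in LM1 (adjusted p = 0.0679).

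Npc1, Cd63 and Lamp1 rose. Npc1 is the membrane transporter that exports cholesterol from the lysosome and the partner of Npc2. In LM1, Npc1 stood at 64.5, 61.7 and 62.6 CPM, in LM1KO at 181, 178 and 178 CPM, in LM9 at 61.1, 49.5 and 54.7 CPM and in LM9KO at 181, 174 and 179 CPM. Npc1 was thus higher where Npc2 was lower, with a log2 fold change of 1.51 (SE 0.07, adjusted p = 2.18e-09) in LM1 and 1.69 (SE 0.07, adjusted p = 9.73e-10) in LM9. Cd63 is a tetraspanin of late endosomes, lysosomes and exosomes. Cd63 was at 352, 344 and 338 CPM in LM1 and at 709, 680.1 and 715 CPM in LM1KO, and at 348, 443 and 424 CPM in LM9 and at 691, 683 and 701 CPM in LM9KO. The groups of Cd63 did not overlap, and the log2 fold change was 1.03 (SE 0.08, adjusted p = 2.17e-07) in LM1 and 0.78 (SE 0.08, adjusted p = 2.37e-06) in LM9. A Cd63 pseudogene is counted separately in the files, and how reads shared by copies were counted is not stated. The abundant structural glycoproteins of the lysosomal membrane went apart: Lamp1 rose by 0.85 (SE 0.05, adjusted p = 6.86e-09) on the log2 scale, and Lamp2, the receptor of chaperone-mediated autophagy, fell, with a log2 fold change of -0.81 (SE 0.06, adjusted p = 1.88e-07). Mcoln1, the calcium channel that acts upstream of TFEB, was at 28.2 to 32.7 CPM in parental and 31.1 to 33.7 CPM in KO-labelled libraries, which overlap, and passed in neither line with all libraries. Mcoln1 was higher in LM9KO without LM9 replicate 1, at log2 0.15 (adjusted p = 0.0166), and with library totals it was higher in both lines, at 0.21 and 0.45 (adjusted p = 0.047 and 7.35e-04).

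**Figure D2:**
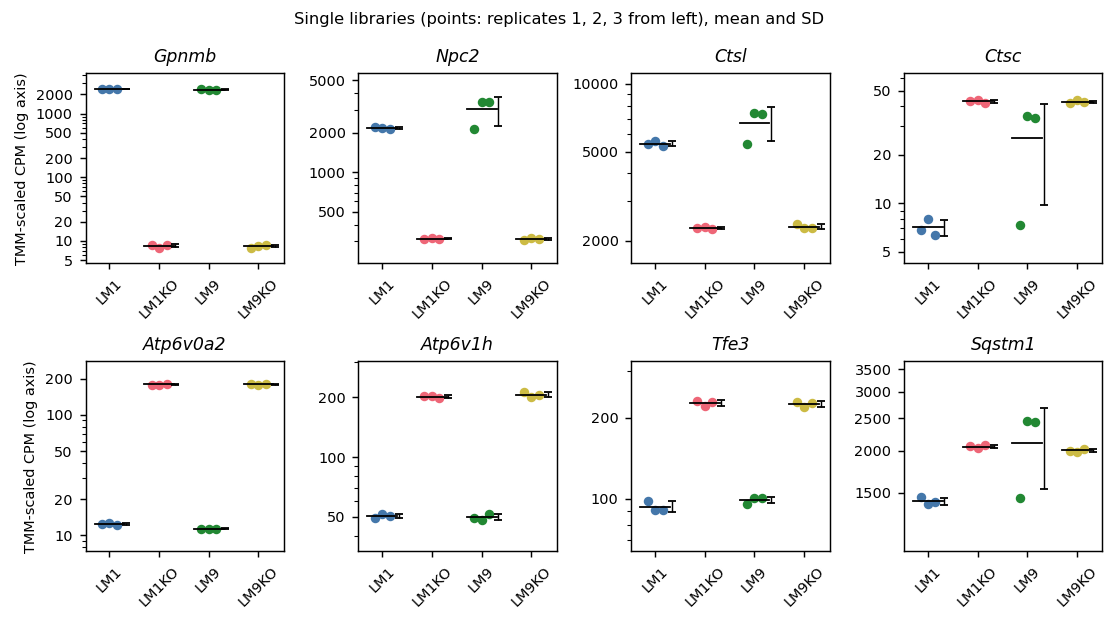
CPM (log axis) of 8 members in each of the 12 libraries, with points for libraries, horizontal lines for the group mean and error bars for the SD (n = 3). Gpnmb, Npc2 and Ctsl lie lower and Atp6v0a2, Atp6v1h and Tfe3 higher in both KO-labelled groups, while LM9 is split for Ctsc and Sqstm1 by replicate 1.

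V-ATPase members were mostly higher, with all 5 V0 members, 5 of 6 V1 members and both accessory members called as higher in the averaged comparison and none as lower (background 46.3% and 40.5%). These are counts, with no test of the set. Atp6v0a2 encodes an a subunit of V0, the part that forms the proton path and places the pump in the cell. For Atp6v0a2 the values were 12.4, 12.6 and 12.2 CPM in LM1, 178, 176 and 182 CPM in LM1KO, 11.3, 11.4 and 11.4 CPM in LM9 and 181, 176 and 181 CPM in LM9KO. The gene (ENSMUSG00000038023, chr5:124628576-124724455, plus strand) was 14.4-fold higher in LM1KO and 15.7-fold higher in LM9KO, with a log2 fold change of 3.85 (SE 0.06, adjusted p = 1.66e-12) in LM1 and 3.98 (SE 0.06, adjusted p = 1.79e-12) in LM9. All 6 parental libraries lay between 11.3 and 12.6 CPM, LM9 replicate 1 included. Atp6v0d1 encodes the d subunit, which couples V0 to the rotor of V1. The 3 LM1 libraries held 64.9, 66.3 and 61.4 CPM of Atp6v0d1 and the 3 LM1KO libraries 164, 162 and 164 CPM, while LM9 held 66.6, 50.6 and 47.1 CPM and LM9KO 162, 159 and 164 CPM. It did not overlap between labels, and the log2 fold change was 1.35 (SE 0.10, adjusted p = 1.40e-07) in LM1 and 1.58 (SE 0.10, adjusted p = 4.10e-08) in LM9. The other a isoform, Atp6v0a1, rose by 0.79 (SE 0.10, adjusted p = 1.63e-05) on the log2 scale, Atp6v0b, which encodes a proteolipid of the rotor ring, by 0.59 (SE 0.09, adjusted p = 1.02e-04), and Atp6v0c, which encodes the main proteolipid of that ring, by 0.88 (SE 0.11, adjusted p = 1.17e-05). LM9 replicates 2 and 3 were above LM1 in these 3 genes, and without LM9 replicate 1 their LM9 values fell from 0.54, 0.40 and 0.64 to 0.30, 0.21 and 0.40, each still called. The LM9 call of Atp6v0b was lost in the fit of only the groups compared (adjusted p = 0.0799). Atp6v0c has 2 pseudogenes in the files, so its counts are uncertain.

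In the V1 sector, Atp6v1h and Atp6v1c1 rose most. Their products, the H and C subunits, sit where V1 meets V0 and take part in the controlled separation of the sectors. Atp6v1h was at 49.5, 51.6 and 50.7 CPM in LM1 and at 204, 203 and 198 CPM in LM1KO, and at 49.5, 48.5 and 51.99 CPM in LM9 and at 211, 200.5 and 206 CPM in LM9KO. For Atp6v1h (ENSMUSG00000033793, chr1:5070018-5162529, plus strand) the log2 fold change was 1.99 (SE 0.05, adjusted p = 3.28e-11) in LM1 and 2.04 (SE 0.05, adjusted p = 3.04e-11) in LM9. Atp6v1c1 measured 94.9, 98.5 and 101 CPM in LM1 against 381, 376 and 377 CPM in LM1KO, and 95.8, 107 and 103 CPM in LM9 against 392, 382 and 382 CPM in LM9KO. Both genes were without overlap, and the log2 fold change of Atp6v1c1 was 1.95 (SE 0.05, adjusted p = 5.05e-11) in LM1 and 1.92 (SE 0.05, adjusted p = 5.81e-11) in LM9. The catalytic A subunit gene Atp6v1a, the rotor gene Atp6v1d and the stalk gene Atp6v1e1 rose by less, with averaged log2 fold changes of 0.67, 0.69 and 0.61 (SE 0.05, 0.04 and 0.04). Atp6v1b2, the B subunit that partners the A subunit, did not pass in the averaged comparison with all libraries (log2 0.10 (SE 0.07, adjusted p = 0.22)) and passed without LM9 replicate 1 (0.18, adjusted p = 2.80e-07). It was 287 CPM in LM9 replicate 1 and 212 and 205 CPM in LM9 replicates 2 and 3. Its LM9 value of 0.25 (SE 0.10, adjusted p = 0.0391) became 0.41 (adjusted p = 1.51e-09) without LM9 replicate 1. It lost the call without LM9 replicate 2 or 3, LM1 replicate 3, or any one LM1KO or LM9KO library (adjusted p between 0.05 and 0.154), with edgeR (0.0569) and with only the groups compared (0.154).

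The accessory proteins Atp6ap1, needed for assembly of the pump, and Atp6ap2, the prorenin receptor, rose together. In LM1, Atp6ap1 stood at 282, 276 and 271 CPM, in LM1KO at 481, 474 and 476 CPM, in LM9 at 280, 352 and 355 CPM and in LM9KO at 471, 464 and 478 CPM. The log2 fold change of Atp6ap1 was 0.79 (SE 0.08, adjusted p = 2.56e-06) in LM1 and 0.53 (SE 0.08, adjusted p = 7.76e-05) in LM9. For Atp6ap2 the values were 217, 229 and 213 CPM in LM1, 300.3, 297 and 280.4 CPM in LM1KO, 214, 219 and 220.4 CPM in LM9 and 292, 315 and 308 CPM in LM9KO. Neither gene overlapped between labels, and the log2 fold change of Atp6ap2 was 0.41 (SE 0.05, adjusted p = 2.22e-05) in LM1 and 0.49 (SE 0.05, adjusted p = 5.35e-06) in LM9.

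**Figure D3:**
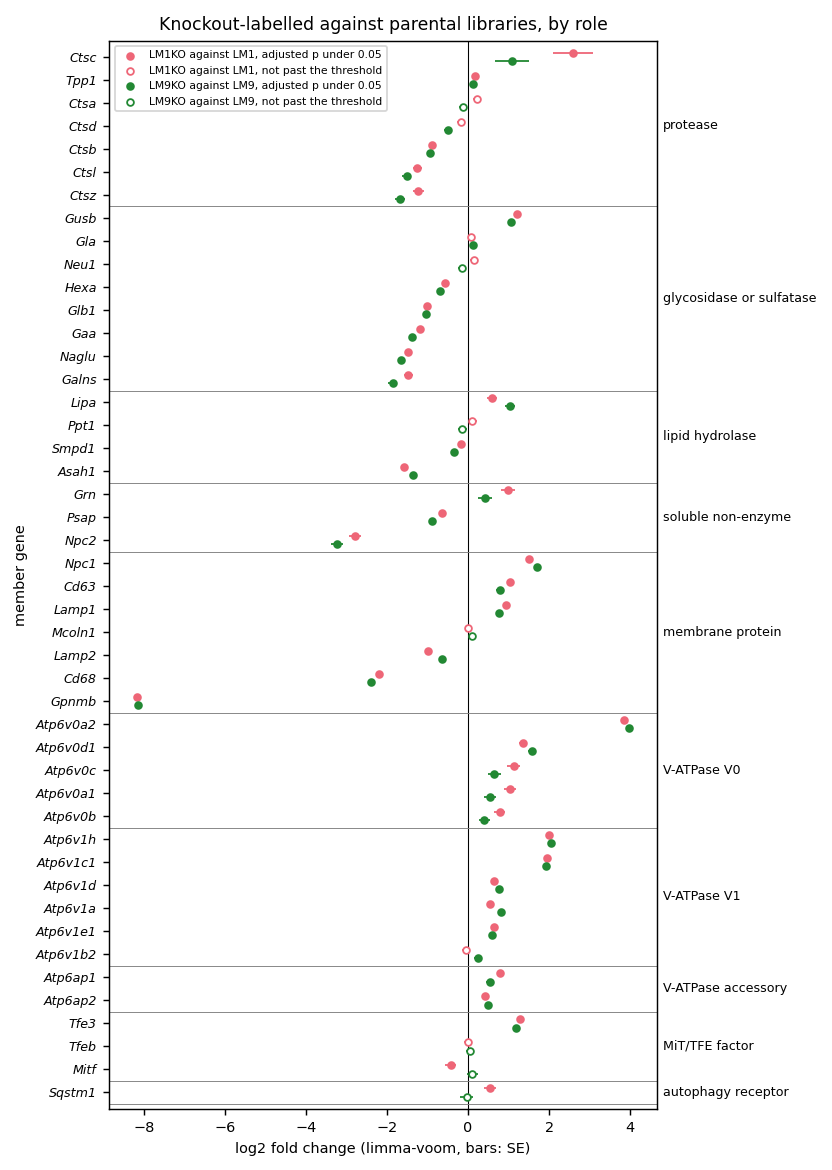
Log2 fold change (points, with bars of 1 SE) of each of the 46 members in LM1KO against LM1 and in LM9KO against LM9, ordered by role. Every called V-ATPase subunit lies right of 0, whereas glycosidases lie mostly left of it and Gpnmb lies near -8.17.

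Of the 12 V-ATPase genes outside the 46, 6 were higher and 3 lower in the averaged comparison (background 46.3% and 40.5%). Atp6v0d2, the second d isoform, known from osteoclasts and macrophages, was at 0 or 1 count in every parental library and at a mean of 2.57 CPM in LM1KO and 2.91 CPM in LM9KO. Dmxl2, a rabconnectin that helps assemble the pump, had a log2 fold change of 5.94 (SE 0.45, adjusted p = 1.93e-07) in LM1 and 4.19 (SE 0.35, adjusted p = 4.67e-07) in LM9. Atp6v0e and Rogdi were lower, with averaged log2 fold changes of -0.69 (SE 0.04, adjusted p = 1.01e-08) and -0.56 (SE 0.06, adjusted p = 4.22e-06).

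Because paralogues of a subunit take 1 place in the complex, their shares were computed per length, as each isoform's percentage of the counts per kilobase summed over the isoforms. Among the a subunits Tcirg1, the isoform known from osteoclasts, held most in every group, with 80.5% ± 0.460 (SD, n = 3) in LM1, 67.5% ± 0.419 (SD, n = 3) in LM1KO, 74.1% ± 6.17 (SD, n = 3) in LM9 and 66.7% ± 0.730 (SD, n = 3) in LM9KO. Tcirg1 itself was called as higher by more than 1 log2 unit in the averaged comparison, so its lower share was not a lower level. The share of Atp6v0a2 went from 3.26% ± 0.160 (SD, n = 3) in LM1 to 19.1% ± 0.211 (SD, n = 3) in LM1KO and from 2.98% ± 0.220 (SD, n = 3) in LM9 to 19.7% ± 0.326 (SD, n = 3) in LM9KO. Atp6v0a1 held 15.6, 15.99 and 16.3% in LM1, 13.4, 13.7 and 12.8% in LM1KO, 16.1, 24.2 and 27.9% in LM9 replicates 1 to 3 and 13.8, 13.6 and 12.99% in LM9KO, so its LM9 share was again split by replicate 1. Of the e subunits, the minor isoform Atp6v0e2 went from 3.61% ± 0.193 (SD, n = 3) to 27.1% ± 0.569 (SD, n = 3) in LM1 and from 2.71% ± 0.715 (SD, n = 3) to 26.3% ± 1.28 (SD, n = 3) in LM9. Atp6v0e2 itself rose, with an averaged log2 fold change of 2.80 (SE 0.09, adjusted p = 4.44e-11). In an exact two-sided permutation test of the share, p was 0.1 for the a, d and e isoforms in both lines, which is the smallest value that 3 against 3 libraries can give, so the test cannot pass 0.05. For the G isoforms the exact permutation p was 0.7, and Atp6v1g1 held 99.6% ± 0.0663 (SD, n = 3) in LM1 and 99.6% ± 0.0565 (SD, n = 3) in LM1KO.

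**Figure D4:**
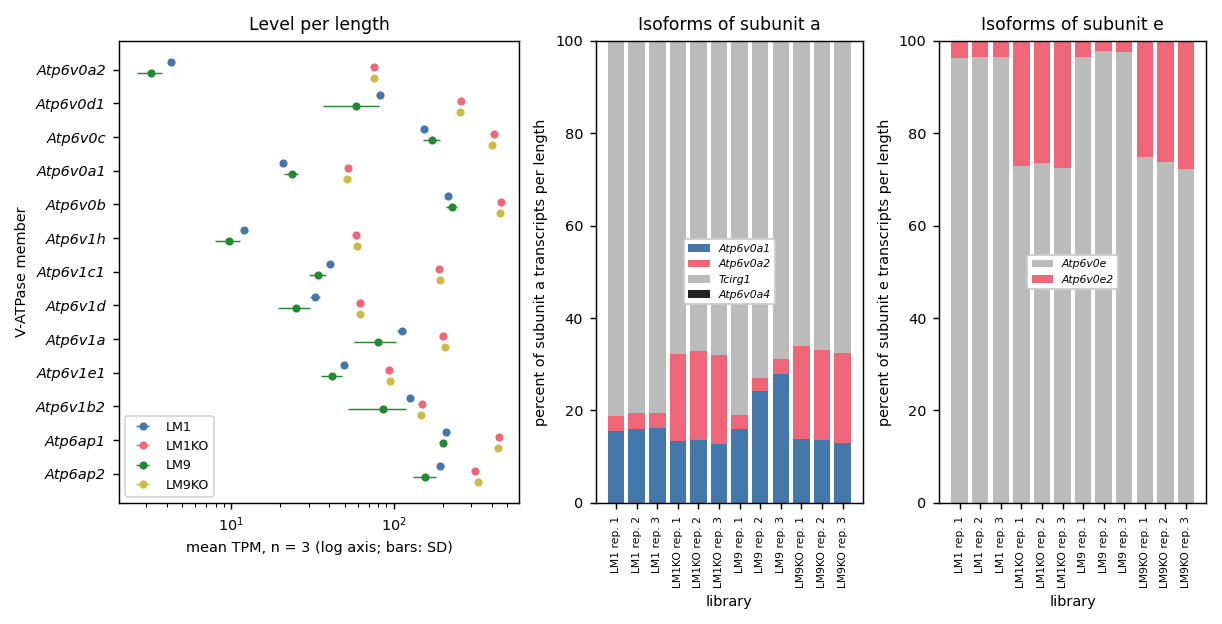
Left, mean TPM of the 13 V-ATPase members in each group on a log axis (bars, SD, n = 3); middle and right, stacked shares per length of the isoforms of the a and e subunits in each of the 12 libraries, in percent. The bands of Atp6v0a2 and Atp6v0e2 are wide in the 6 KO-labelled libraries and narrow in the 6 parental ones.

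Of the MiT/TFE factors, Tfe3 passed the averaged test with TMM factors and Tfeb and Mitf did not. Tfe3 was at 98.3, 90.5 and 91.1 CPM in LM1 and at 231, 222 and 229.7 CPM in LM1KO, and at 95.9, 101 and 101 CPM in LM9 and at 229.5, 219 and 227 CPM in LM9KO. The gene (ENSMUSG00000000134, chrX:7762560-7775202, plus strand) was 2.44-fold higher in LM1KO and 2.27-fold higher in LM9KO without overlap, with a log2 fold change of 1.29 (SE 0.05, adjusted p = 1.05e-09) in LM1 and 1.19 (SE 0.05, adjusted p = 2.09e-09) in LM9. The 3 LM1 libraries held 27.9, 22.8 and 24.9 CPM of Tfeb and the 3 LM1KO libraries 25.6, 24.8 and 24.7 CPM, while LM9 held 26.7, 20.9 and 21.4 CPM and LM9KO 22.8, 23.3 and 24.6 CPM. Tfeb overlapped between labels in both lines, with a log2 fold change of 0.00 (SE 0.10, adjusted p = 0.976) in LM1 and 0.04 (SE 0.10, adjusted p = 0.747) in LM9. With library totals Tfeb passed in LM9 (0.39, adjusted p = 0.0147) and on average (0.31, adjusted p = 0.00767, against 0.02 with TMM factors). Mitf measured 21.8, 25.3 and 25.3 CPM in LM1 against 17.7, 18.5 and 17.6 CPM in LM1KO, and 22.7, 15.3 and 15.03 CPM in LM9 against 17.3, 18.9 and 20.2 CPM in LM9KO. Mitf was called as lower in LM1KO, where its log2 fold change of -0.43 (SE 0.13, adjusted p = 0.0114) became -0.21 with library totals (adjusted p = 0.268). In LM9 it overlapped, with 0.10 (SE 0.14, adjusted p = 0.517), but without LM9 replicate 1 Mitf was higher in LM9KO (log2 0.31, adjusted p = 0.00321), as it was with library totals (0.46, adjusted p = 0.0274). Its averaged value of -0.16 changed sign with library totals, to 0.13. Per length, Tfe3 made up 54.7% of the TPM of the 3 factors in LM1, 77.1% in LM1KO, 60.1% in LM9 and 77.2% in LM9KO.

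Among 19 genes that control these factors, 12 were higher and 6 lower in the averaged comparison (background 46.3% and 40.5%). Rragd, a Rag GTPase that is itself a target of the factors, was nearly absent in parental libraries. In LM1, Rragd stood at 0.142, 0.0613 and 0.0723 CPM, in LM1KO at 88.98, 87.8 and 84.1 CPM, in LM9 at 0, 0.322 and 0.433 CPM and in LM9KO at 86.9, 85.5 and 87.6 CPM. Each parental library held less than 1 CPM of Rragd, with a log2 fold change of 9.73 (SE 0.73, adjusted p = 1.77e-07) in LM1 and 9.37 (SE 0.70, adjusted p = 1.73e-07) in LM9. Without LM9 replicate 1 its LM9 value was 7.78. Rptor, the mTORC1 scaffold, rose by 1.61 (SE 0.04, adjusted p = 9.52e-12) on the log2 scale. Ppp3cb, a catalytic subunit of calcineurin, which dephosphorylates TFEB, and Fnip1, a partner of folliculin, were lower, with -0.93 (SE 0.07, adjusted p = 1.28e-07) and -0.88 (SE 0.09, adjusted p = 2.63e-06).

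Sqstm1 encodes p62, which carries ubiquitinated cargo to autophagosomes. For Sqstm1 the values were 1451, 1385 and 1409 CPM in LM1, 2061, 2034 and 2076 CPM in LM1KO, 1446, 2449 and 2429 CPM in LM9 and 2002, 1982 and 2029 CPM in LM9KO. LM1 and LM9 replicate 1 were the lowest libraries, the KO-labelled ones lay between, and LM9 replicates 2 and 3 were the highest. The log2 fold change was 0.54 (SE 0.16, adjusted p = 0.00794) in LM1 and -0.03 (SE 0.16, adjusted p = 0.853) in LM9, and without LM9 replicate 1 the LM9 value was -0.28 (adjusted p = 3.86e-09). With library totals the LM9 value was 0.32 (adjusted p = 0.0212), so the direction in LM9 depends on the scale and on that library. The averaged value was 0.25 (SE 0.11, adjusted p = 0.0515), and it passed without LM9 replicate 1 (0.13, adjusted p = 4.02e-07), 2 (0.32, adjusted p = 0.016) or 3 (0.32, adjusted p = 0.0185), with library totals (0.54, adjusted p = 5.94e-05), with no count filter (0.26, adjusted p = 0.0467) and with sample quality weights (0.13, adjusted p = 2.13e-05). Of its exon bases, 17.3% lie opposite the gene Mrnip, and whether the counting used strand is not stated. Of 25 other autophagy genes, 10 were higher and 13 lower in the averaged comparison (background 46.3% and 40.5%). Atg5 and Atg7, which conjugate ATG8 proteins, were 3.37-fold and 2.42-fold higher on average (adjusted p = 2.64e-10 and 1.30e-09). Calcoco1, an autophagy receptor, was 4.40-fold lower (adjusted p = 3.47e-11). Atg9b, a lipid scramblase paralogue, fell, with a log2 fold change of -3.48 (SE 0.48, adjusted p = 2.58e-05); in LM9 it was at 7.59, 27 and 25.98 CPM in replicates 1 to 3.

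Further lysosomal genes were taken from lists of 140 genes outside the 46, of which 65 were higher and 63 lower in the averaged comparison (background 46.3% and 40.5%). With library totals 76 were higher and 49 lower (background 52.8% and 33.6%). These counts were near the background. All 6 further cathepsins and proteases were lower with TMM factors (background 40.5%), and 5 of the 6 with library totals (33.6%). Lgmn, the asparaginyl endopeptidase, was 16.03-fold lower on average (adjusted p = 7.23e-14), going from 784, 782 and 762 CPM in LM1 to 52.6, 51.5 and 53.5 CPM in LM1KO. Ctso fell by 3.52 (SE 0.24). Among the 7 member proteases, by comparison, Ctsb, Ctsd, Ctsl and Ctsz were lower, Ctsc and Tpp1 higher and Ctsa not called.

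The 20 further glycosidases and sulfatases were mixed, with 8 higher and 11 lower (background 46.3% and 40.5%). Fuca2, a fucosidase, was 5.03-fold higher on average, and Manba, the beta-mannosidase, 3.80-fold lower. Of 13 further lipid and acid hydrolases 7 were higher and 6 lower (background 46.3% and 40.5%). Naaa, an amidase of acylethanolamides and a relative of Asah1, went from 4.998, 6.19 and 5.28 CPM in LM1 to 61.8, 59.7 and 61.9 CPM in LM1KO and had an averaged log2 fold change of 3.42 (SE 0.06, adjusted p = 6.58e-13). Acp2, the lysosomal acid phosphatase, rose by 1.78 (SE 0.10, adjusted p = 1.00e-08), and Acp5, the tartrate-resistant acid phosphatase, fell, with a log2 fold change of -5.35 (SE 0.37, adjusted p = 4.67e-08). Gm2a, the GM2 activator that works with hexosaminidase, was 9.09-fold lower.

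Of 29 further membrane proteins 15 were higher and 12 lower (background 46.3% and 40.5%). The metal transporter Slc11a1 and the nucleoside transporter Slc29a3 rose most, with averaged log2 fold changes of 3.85 (SE 0.26, adjusted p = 3.83e-08) and 2.93 (SE 0.16, adjusted p = 4.51e-09), and the cobalamin transporter Abcd4 and the endosomal protein Litaf fell most, with -1.78 (SE 0.07, adjusted p = 2.63e-10) and -1.65 (SE 0.06, adjusted p = 7.29e-11). Of 16 genes that sort enzymes to lysosomes 7 were higher and 6 lower (background 46.3% and 40.5%). Nagpa, which uncovers the mannose 6-phosphate tag, and Ap1s1, an adaptor subunit, were 7.15-fold and 5.28-fold higher, and the sorting receptors Sorl1 and Sort1 were 36.2-fold and 5.52-fold lower.

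**Figure D5:**
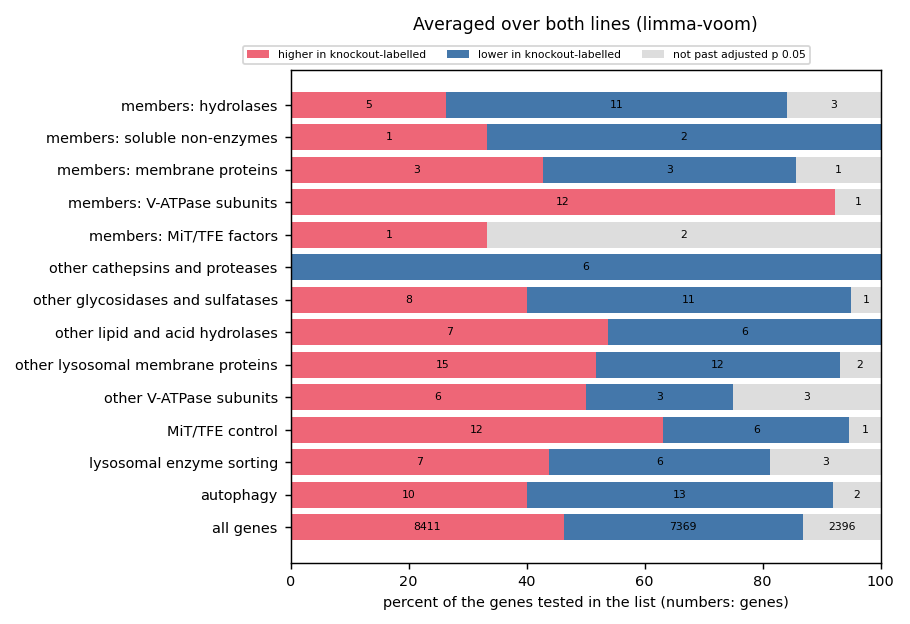
Percent of the genes tested in each list (bars; numbers in the bars are genes) that were higher, lower or not called in the averaged comparison. V-ATPase members are 12 higher of 13 and the further cathepsins and proteases 6 lower of 6, against 8411 higher and 7369 lower among all genes.

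Levels between genes were compared per length, in TPM over all listed genes, with no test of the sums. The median TPM ratio over all genes tested was 0.33 log2 units in LM1 and 0.62 in LM9. The 19 hydrolases summed to 8763 ± 105 TPM in LM1, 6316 ± 68.3 in LM1KO, 8385 ± 351 in LM9 and 6249 ± 51.97 in LM9KO. The 13 V-ATPase subunits summed to 1251 ± 18.7, 2766 ± 17.5, 1118 ± 93.7 and 2760 ± 36.8 TPM in the same order. The summed hydrolase transcripts were thus 0.721 times as high in LM1KO as in LM1 and the summed V-ATPase transcripts 2.21 times as high (0.745 and 2.47 times in LM9KO against LM9). Ctsb, Ctsl, Ctsz and Ctsd held 24.1%, 21.9%, 19.4% and 17.7% of the hydrolase TPM in LM1, so the hydrolase sum mostly follows these cathepsins. The order of levels changed within roles. Ctsb led the hydrolases in LM1 with 24.1% of their TPM, while in LM1KO Ctsd led with 26.9%, followed by Ctsb with 22.2%. Ctsl, Ctsz and Ctsb lay within 22.8% to 21.2% in LM9, and their order there was not tested. Gpnmb and Cd68 led the membrane proteins in LM1 with 33.4% and 32.8%, and Lamp1 led in LM1KO with 50.6%. Psap led the soluble non-enzymes in every group, while Grn passed Npc2 in the KO-labelled groups, at 29.6% against 3.52% in LM1KO.

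Between the KO-labelled groups of the lines, differences were small. No member was called between LM1KO and LM9KO (limma-voom; background 0%), and 0 members had an unadjusted p under 0.05 with limma-voom, edgeR or DESeq2 (background 0.979%, 0.737% and 0.506%). The smallest p-values belonged to Tfeb and Smpd1 upward, at log2 0.09 (SE 0.10) and 0.05 (SE 0.05) for LM1KO against LM9KO, and to Atp6ap2 and Lamp2 downward, at -0.06 (SE 0.05) and -0.07 (SE 0.09). The ratio of the highest to the lowest of the 6 KO-labelled libraries had a median of 1.05 over the members and a maximum of 1.19, in Lamp2.

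Between LM1 and LM9 no member was called either (background 0.0055%), although 29 members had an unadjusted p under 0.05 with limma-voom (background 47.7%) and 27 with edgeR (45.4%). By DESeq2 31 members had an unadjusted p under 0.05 (47.6%) and 26 were called (31.8%). Without LM9 replicate 1, 38 members were called (background 65.7%), of which 11 were higher and 27 lower in LM1 (33.4% and 32.4%). With library totals and without that library, 38 members were called, 21 higher and 17 lower (background 42.9% and 22.6%), so the balance of directions depends on the scale. Several differences kept their sign on both scales, and those of Ctsc, Grn and Sqstm1 were the largest of the 46 with TMM factors. Ctsc was at 6.36 to 8.03 CPM in LM1 and LM9 replicate 1 and at 34.0 to 34.9 CPM in LM9 replicates 2 and 3, a log2 difference (LM1 minus LM9 replicates 2 and 3) of -2.27 (adjusted p = 3.78e-13) with TMM factors and -2.07 (adjusted p = 1.13e-12) with library totals. Grn differed by -0.81 with TMM factors and by -0.61 with library totals, called in both. Sqstm1 differed by -0.79 (adjusted p = 7.88e-14) with TMM factors and -0.58 (adjusted p = 1.38e-12) with library totals, and Galns by -0.53 (adjusted p = 5.02e-08) with TMM factors and -0.33 (adjusted p = 1.35e-05) with library totals. Lipa and Mitf went the other way, with 0.61 (adjusted p = 4.15e-10) with TMM factors and 0.81 (adjusted p = 1.05e-11) with library totals and 0.67 (adjusted p = 3.49e-06) with TMM factors and 0.87 (adjusted p = 1.33e-07) with library totals. Ctsb is an example whose direction turned, at -0.06 (adjusted p = 0.0307) with TMM factors and 0.14 (adjusted p = 2.28e-05) with library totals.

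The change with the KO label differed between the lines in no member when all libraries were fitted (background 0%), with 17 members at an unadjusted p under 0.05 by limma-voom (background 24.7%), 17 by edgeR (20.9%) and 22 by DESeq2 (24.5%). The smallest p-values upward were those of Sqstm1 and Ctsz, with a difference (LM1 change minus LM9 change) of 0.57 (SE 0.22, adjusted p = 0.202) and 0.45 (SE 0.18, adjusted p = 0.202), and downward those of Mitf and Lamp2, with -0.53 (SE 0.19, adjusted p = 0.202) and -0.34 (SE 0.13, adjusted p = 0.202). Without LM9 replicate 1, 33 members were called (background 57.2%), and Sqstm1, Ctsz, Mitf and Lamp2 differed by 0.82, 0.65, -0.74 and -0.43. Since LM1KO and LM9KO hardly differed, these values mirror those between LM1 and LM9 and share their libraries.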

How the data were processed

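Per the labels and the study's methods, the authors made stranded poly-A libraries, sequenced single-end reads, aligned them with STAR to mm10 and counted 5' ends over the union of exons of each gene with QuasR. The deposited values were raw counts per gene in 12 files, 3 per group, with no pooling. Tool versions and the annotation release are not given in the sources used here, nor is the use of strand in counting. Groups came from the sample titles. Names, coordinates and lengths came from GENCODE M21 (GRCm38, the assembly of mm10), which matched 18268 of 18278 identifiers. No listed gene had a third-highest library below 8 counts, which reads as a filter on low counts before deposit.

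The main test was limma-voom, as in the study, on 18176 genes kept by filterByExpr (count minimum 10, total minimum 15), with TMM factors (0.822 to 1.11), 1 mean per group and all 12 libraries in 1 fit. Tests were two-sided with Benjamini-Hochberg adjustment over all genes in each comparison, and a gene was called at an adjusted p under 0.05. Exact permutation tests of 3 against 3 cannot go below 0.1. Floors cover counting error only, since reads are not independent molecules. Software comprised limma 3.58.1, DESeq2 1.42.0, edgeR 4.0.16 and R 4.3.3. Tested on simulated data for the averaged comparison, 199 of 200 genes changed by 1 log2 unit were recovered with 10 false calls among 17600 genes, and for the difference between lines 170 of 200 with 7 among 17599. Only these 200 genes were changed, at a dispersion of 0.01, with 1 mean shared by all groups and no library set apart. In the data most genes were called and LM9 replicate 1 lay apart, so those rates do not describe these data. The 21 other settings comprised edgeR, DESeq2, other scaling, other filters, sample weights, a replicate block and leaving out each library. Fits with library totals or median-ratio factors without LM9 replicate 1 were chosen after seeing the data.

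The members and all lists were chosen with earlier results of these data known. Values in every library are given for the MiT/TFE factors, Gpnmb, Sqstm1, Nfib and, in each role, the 2 largest rises and the 2 largest falls in the averaged comparison among genes called there with the same sign in both lines; of each other list, the 2 largest rises and falls among called genes with a mean of at least 1 CPM are named, and for the remaining comparisons the members with the 2 smallest p-values in each direction. Nfatc1, Ocstamp, Oscar, Tnfrsf11a, Krt14, Col1a1, Dcn, Kdr, Cdh5, Vwf, Pecam1, Csf1r, Mpeg1, Fcgr3, Cd14, Tcirg1, Atp6v0e2, Atp6v1g1 and the isoforms of the a subunit were named as well, after their values were seen. Some genes that this rule names are not reported here.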

Additional observations from a re-analysis of the deposited data

How the results depend on the processing

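Over the 21 other settings and the 2 chosen after seeing the data, 327 counts of called genes were within 1.5 times of the value in the report and 11 were above it. For the named genes, 1870 fold changes kept direction and call, 42 kept direction and lost the call, 26 gained it and 34 turned sign. Called members in the difference of the KO-label change between lines numbered 0 with all libraries, 34 with sample quality weights (58.1% of all genes), 0 to 33 when 1 library was left out (33 without LM9 replicate 1, 57.2%), 37 with library totals (57.3%) and 36 with median-ratio factors (57.3%), both also without LM9 replicate 1. Called members between LM1 and LM9 numbered 0 with all libraries, 26 with DESeq2 (31.8% of all genes), 17 with library totals (28.8%), 20 with a filter of a mean of at least 5 CPM (39.4%), 37 with sample quality weights (63.8%), 0 to 38 when 1 library was left out (38 without LM9 replicate 1, 65.7%), 38 with library totals (65.5%) and 37 with median-ratio factors (66.1%), both also without LM9 replicate 1. The cause of these shifts was not tested.

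Summed with TMM-scaled CPM in place of TPM, the log2 ratios of KO-labelled to parental libraries in LM1 and LM9 were -0.82 and -1.03 for hydrolases (TPM -0.47 and -0.42), -0.62 and -0.99 for soluble non-enzymes (-0.22 and -0.25), -0.97 and -0.95 for membrane proteins (-0.40 and -0.20), 0.89 and 0.80 for V-ATPase subunits (1.14 and 1.30) and 0.92 and 0.94 for MiT/TFE factors (1.09 and 1.41).

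Values that turned sign for the genes named by rule, and for isoform shares, were these; signs turned for Ctsa, Neu1, Ppt1 and Mcoln1 with library totals in at least 1 line. The share of Atp6v1g1 among G isoforms changed by -0.0223 to 0.0396 percentage points in LM1 and by -0.125 to 0.00696 in LM9 when 1 library was left out, and that of Atp6v1g2 by -0.0396 to 0.0223 and -0.00696 to 0.125. Tfeb in LM1 was at a log2 fold change of 0.01 with DESeq2, with the 5 CPM filter and with sample weights, 0.02 with median-ratio factors (with or without LM9 replicate 1), 0.22 with library totals (with or without it), 0.00 with no filter and with only the groups compared, and -0.06 to 0.08 when 1 library was left out. Tfeb in LM9 was at -0.02 to 0.16 likewise (0.39 with library totals) and on average at -0.01 to 0.08 (0.31). With library totals, Mitf averaged 0.13 (0.26 without LM9 replicate 1), and in LM9 it was at -0.00 to 0.31 when 1 library was left out. With library totals, Sqstm1 in LM9 was at 0.32 (0.14 without LM9 replicate 1), against -0.28 to 0.10 when 1 library was left out. Smpd1 with library totals was at 0.05 in LM1, 0.01 in LM9 and 0.03 on average (0.05, 0.04 and 0.05 without LM9 replicate 1).

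With the replicate number as a block, called members numbered 38 in LM1 (80.3% of all genes), 38 in LM9 (81.6%) and 37 on average (86.3%), and Gla alone lost its call (adjusted p = 0.079 in LM9 and 0.0624 on average). Correlations of same-numbered deviations ran from -0.16 to 0.0903, and in the comparison of label and parent 2 of 6 libraries in LM1 and 0 of 6 in LM9 correlated best with their own number, so the numbers do not pair the libraries. Changes as small as those of Tpp1 and Gla lost calls when 1 library was left out, and arms left with fewer libraries were assumed to vary like the other groups.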
